A study of Arabidopsis thaliana with 12 samples.

Results

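Of 3439 features on an Arabidopsis thaliana expression array, 149 carried a signal above 0 in all 6 wild-type (WT) samples and were listed at exactly 0 in all 6 samples of the psbs mutant. These 149 features are described here. They were chosen by the deposited intensities of both groups, so the difference between the groups is given for them as a description and was not tested. The platform annotation gave 1 gene for 32 of them, several genes for 43 and no gene for 74. Of the 32 single-gene features, 31 are named below and 1 is not reported here. Genes were named only from single-gene features.

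Both groups were of the ecotype Columbia 0, and total RNA of each sample was hybridized. The psbs mutant lacks the protein called PSII-S in the labels. WT carries the gene, and no treatment is given for either group. The labels name neither the mutant allele nor the tissue, the plants' age or the light they grew in, and do not say whether the 6 samples of a group were separate plants.

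PsbS is a small membrane protein of the thylakoid that senses the acidification of the thylakoid lumen in strong light. It switches the light-harvesting antenna of photosystem II to a state in which excess absorbed energy is released as heat. Plants without it grow well in steady moderate light but lose the rapid part of this protection. The 149 features share the detection pattern by which they were chosen. The 21 named genes with a role given below encode proteins of chromatin, organelles, metabolism, the cell surface and protein binding.

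The psbs samples were dimmer as a whole, which bears on every psbs value and every comparison with psbs below. The median intensity over all features lay between 0.304 and 0.379 in the WT samples and between 0.0233 and 0.0361 in the psbs samples. From 13.0% to 13.7% of features were at 0 in a WT sample, against 27.0% to 34.9% in a psbs sample. psbs replicates 1 and 2 stood apart, with 33.1% and 34.9% of features at 0 against 27.0% to 28.6% in replicates 3 to 6. Without these 2 samples, 182 features met the rule. They included all 149 by construction, since leaving out samples can only loosen the rule. The part of the lower psbs signal in the zeros was not tested. An exact 0 is given as "listed at 0", since its meaning is not given in the sources used here. In bulk RNA, fewer cells of a type and less RNA per cell cannot be told apart.

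Of the 2908 features above 0 in all 6 WT samples, 149, or 5.12%, were at 0 in every psbs sample. The share was 5.48% among single-gene features (32 of 584), 5.79% among features of several genes (43 of 743) and 4.68% among features with no gene (74 of 1581). Named genes were therefore about as frequent among the 149 as in the table. The opposite pattern, a signal in all 6 psbs samples with 0 in all 6 WT samples, was held by 5 of 1420 features, or 0.352%.

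The low end of the scale was as follows. The lowest positive value in a psbs sample lay between 7.85e-06 and 6.29e-05, and the 5th percentile of its positive values between 0.00448 and 0.00595. The lowest WT value of any of the 149 features was 0.000736. These values come from different features and from groups of unequal brightness, so they do not show where the 149 would lie in psbs.

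The 149 features lay toward the dim side of the WT signal. Intensities of different features depend on the probe as well as on the transcript, so these level classes describe signal and not transcript number. The mean WT intensity of the 149 ran from 0.0217 to 2.30 with a median of 0.288, and the middle part, between the quartiles, from 0.143 to 0.435. The other 2759 features above 0 in all WT samples had a median of 0.427, with quartiles of 0.240 and 0.776 and a highest mean of 95.5. The plot of WT level shows the shift of the whole distribution and the lack of its bright tail.

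**Figure D1:**
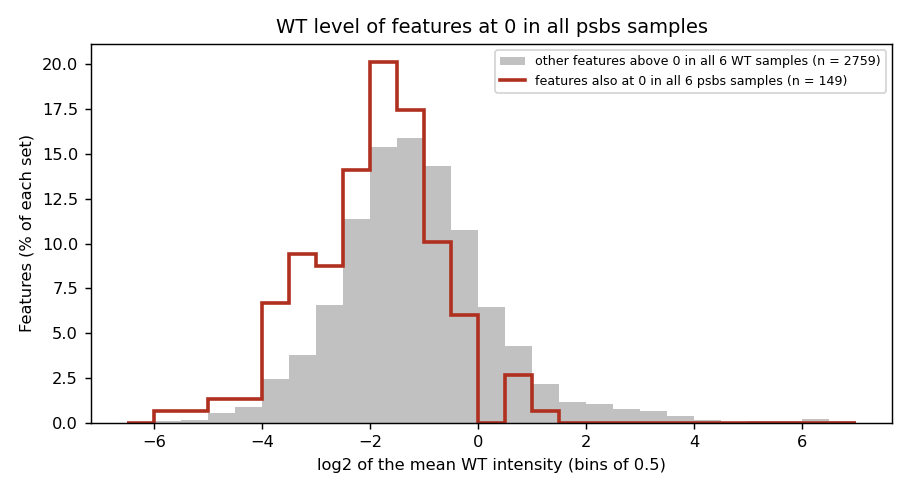
Distribution of the log2 mean WT intensity, in bins of 0.5, as the percentage of each set of features. The 149 features at 0 in all psbs samples (red line, median intensity 0.288) lie to the left of the other 2759 features above 0 in all WT samples (grey, median 0.427) and reach no higher than 2.30.

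When the 2908 features were divided into 4 level classes of equal size by mean WT intensity, from class 1 (dimmest) to class 4 (brightest), the share listed at 0 in all psbs samples was lower in each brighter class. It was 8.39% in class 1 (61 of 727 features, up to 0.235), 6.60% in class 2 (48 of 727) and 3.71% in class 3 (27 of 727). In class 4, from 0.756 upward, it was 1.79% (13 of 727). The dimmest class thus held 40.9% of the 149 features and the brightest 8.72%. By fixed bounds, 18 of the 149 were under a mean of 0.1, 59 were from 0.1 to 0.3, 67 from 0.3 to 1 and 5 from 1 to 3. None of the 124 features at 3 or more was among them.

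Detection in psbs in general ran the same way with WT level. In the dimmest WT class 29.0% of features were above 0 in all 6 psbs samples, and in the brightest 77.0% were. The typical psbs intensity of the features that were not listed at 0 throughout was 0.0203 in the dimmest class and 0.172 in the brightest (medians over features of the median over samples). Over all 2908 features, 91 were at 0 in exactly 5 psbs samples, fewer than the 149 at 0 in all 6, and 174 were at 0 in exactly 4. In each class more features were at 0 in all 6 psbs samples than in exactly 5. Positive values in exactly 1 psbs sample kept 91 features out, and 5 to 25 of them fell to each sample: replicate 5 alone kept out 25, replicate 6 alone 23 and replicate 2 alone 5.

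**Figure D2:**
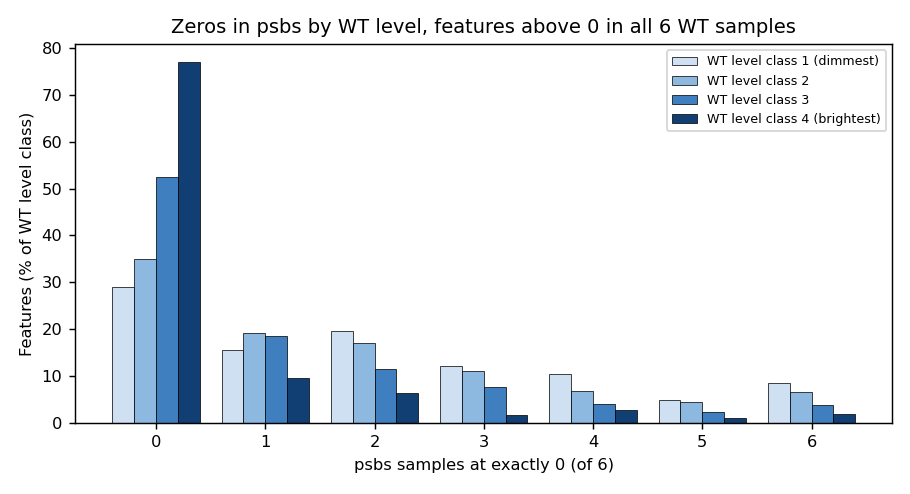
Percentage of the features of each WT level class (727 features each, above 0 in all 6 WT samples) by the number of psbs samples in which the feature was at exactly 0. At 6 zeros the bars step down from 8.39% in the dimmest to 1.79% in the brightest class, and at 0 zeros they step up from 29.0% to 77.0%.

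Among the 31 named genes, 6 lay in level class 4, 6 in class 3, 6 in class 2 and 13 in class 1. Their mean WT intensities ran from 0.0339 to 1.87 with a median of 0.353. Of all 149 features, 13 lay in class 4, and their median was 0.288. The named genes thus had a larger share in the brightest class than the 149 as a whole, on 6 genes only. Class 1, the dimmest, held 13 of the 31 and 61 of the 149. Other single-gene features above 0 in all WT samples (552) had a median of 0.424, above that of the named genes. The role of 21 of the 31 named genes is given below as general knowledge of the gene, and no role is given for the other 10.

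**Figure D3:**
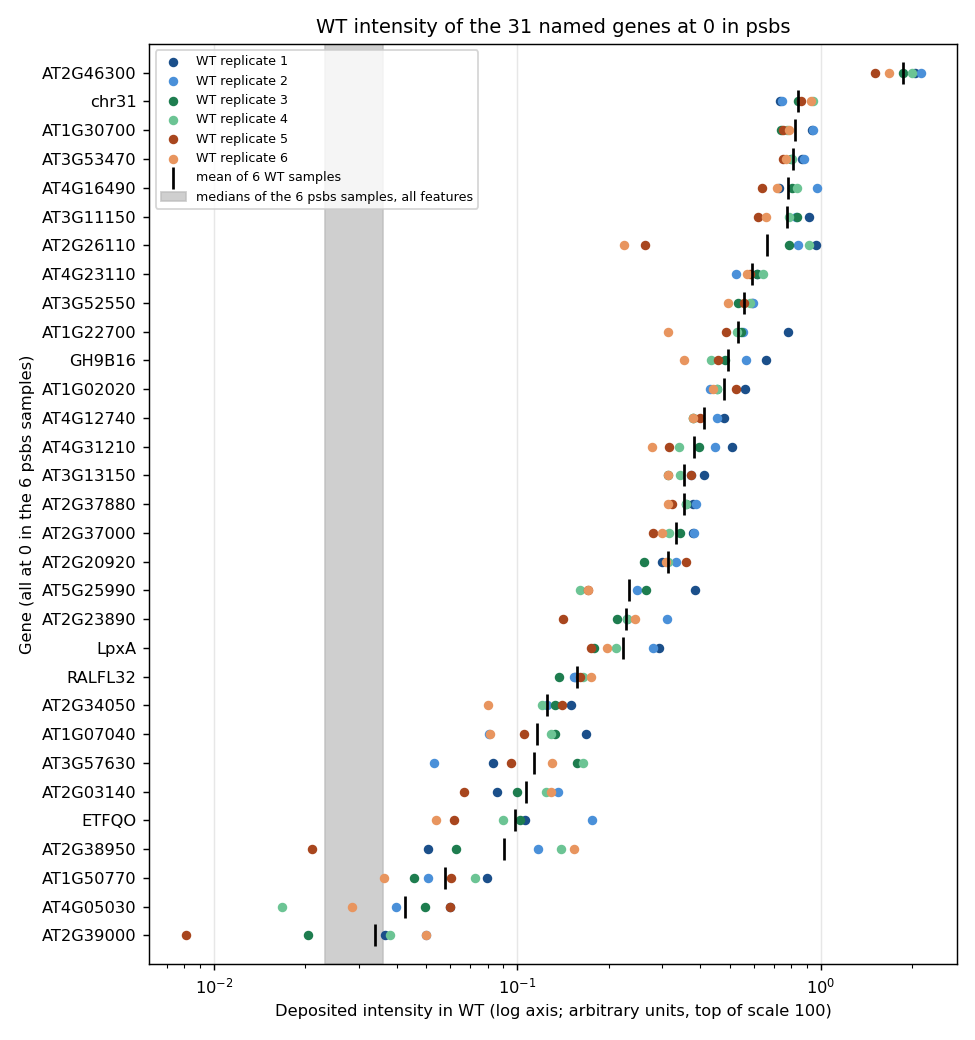
Deposited intensity (log axis) of the 31 named genes in the 6 WT samples (points), with the mean (black bar), in order of the mean. All 31 were listed at 0 in every psbs sample, which a log axis cannot show. The grey band spans the median over all features of the psbs samples, 0.0233 to 0.0361, and 3 genes had WT samples inside or below it.

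The cell surface group held the brightest named gene. AT2G46300 encodes a hydroxyproline-rich glycoprotein of the late embryogenesis abundant family. Its WT values in replicates 1 to 6 were 2.04, 2.13, 1.86, 1.99, 1.504 and 1.67, with a mean of 1.87 ± 0.239 (SD, n = 6). It was the only named gene with a mean above 1. The feature numbered just before it, which has no gene in the annotation, was also among the 149.

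GH9B16 (AT4G38990) is a glycosyl hydrolase of family 9, the family of plant endoglucanases that cut beta-glucan chains of the cell wall. The 6 WT values were 0.659, 0.567, 0.483, 0.435, 0.458 and 0.355, with a mean of 0.493 ± 0.107 (SD, n = 6). Its highest and lowest WT samples, replicates 1 and 6, differed 1.86-fold. RALFL32 (AT4G14010) encodes a member of the RALF family, secreted peptides that plant receptor kinases of the cell surface perceive. Its WT mean was 0.157 ± 0.0125 (SD, n = 6), with little spread, between 0.137 and 0.174. AT3G57630 encodes an exostosin-type glycosyltransferase that extends the arabinose chains on extensins, the structural glycoproteins of the wall. Its WT mean was 0.114 ± 0.0438 (SD, n = 6), and its samples spread from 0.0533 in replicate 2 to 0.165 in replicate 4.

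Among the genes for proteins acting on DNA and chromatin, chr31 (AT1G05490, chromatin remodeling 31) had the highest WT signal. It encodes a remodeller of the SNF2 type, of a plant family that brings RNA polymerase IV to loci silenced by RNA-directed DNA methylation. Replicates 1 to 6 of WT gave 0.735, 0.744, 0.838, 0.940, 0.857 and 0.928, with a mean of 0.840 ± 0.0875 (SD, n = 6). Its lowest WT values were in replicates 1 and 2, where most other named genes had their highest.

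DNA maintenance was represented by AT4G12740, a DNA glycosylase of the HhH-GPD family that starts base excision repair, and by AT4G31210, a topoisomerase of type IA, which relaxes DNA by cutting a single strand. AT4G12740 was at 0.412 ± 0.0439 (SD, n = 6) in WT, with all samples between 0.379 and 0.479. AT4G31210 was at 0.382 ± 0.0871 (SD, n = 6), from 0.278 in replicate 6 to 0.510 in replicate 1. AT2G37000 encodes a transcription factor of the plant TCP family, regulators of cell proliferation and organ form, and was at 0.333 ± 0.0423 (SD, n = 6). AT2G38950 encodes a jumonji-domain protein, of the family of histone demethylases. It was the least steady of the 31: its mean was 0.0907 ± 0.0533 (SD, n = 6), with 0.0210 in replicate 5 and 0.154 in replicate 6.

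Of the proteins that work in chloroplasts or mitochondria, AT1G22700 is the closest to photosynthesis. It encodes a thylakoid protein with tetratricopeptide repeats, needed for photosystem I to accumulate. In WT replicates 1 to 6 it was at 0.778, 0.553, 0.546, 0.529, 0.488 and 0.313, with a mean of 0.534 ± 0.149 (SD, n = 6). Replicate 1 was the highest and replicate 6 the lowest, 2.48-fold apart, and the other 4 lay between 0.488 and 0.553.

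AT3G13150 encodes a pentatricopeptide repeat protein, one of a large plant family that binds and processes organelle RNA. It was at 0.355 ± 0.0390 (SD, n = 6), between 0.313 and 0.413. LpxA (AT4G29540) is a UDP-N-acetylglucosamine acyltransferase, the enzyme that opens the lipid A pathway, which plants share with bacteria. It was at 0.223 ± 0.0513 (SD, n = 6), with replicates 1 and 2, at 0.294 and 0.279, above the other 4, at 0.175 to 0.212. AT2G34050 encodes an assembly factor of the ATP11 type for the catalytic head of ATP synthase, and was at 0.125 ± 0.0243 (SD, n = 6).

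The dimmest organelle genes were ETFQO and AT2G39000. ETFQO (AT2G43400) is the electron-transfer flavoprotein:ubiquinone oxidoreductase of mitochondria, which passes electrons from amino acid breakdown to the respiratory chain and is used when plants starve for sugar in the dark. It was at 0.0983 ± 0.0434 (SD, n = 6), from 0.0541 in replicate 6 to 0.176 in replicate 2. AT2G39000, an acetyltransferase of the GCN5-related family located in plastids, had the lowest mean of all 31, 0.0339 ± 0.0167 (SD, n = 6). Its lowest sample, replicate 5, was at 0.00810, and it was the only named gene with a WT value at or under 0.0115, the 5th percentile of all positive values of the table. Replicate 5 was also the lowest sample of AT2G38950. A lowest value there was common, as replicate 5 was the lowest for 10 of the 31 named genes and 32.7% of the other 2759 features. In both genes, however, replicates 2, 4 and 6 were all above replicates 1, 3 and 5. Replicate 6 was the lowest for 27.6% of the other 2759 features. AT2G38950 and AT2G39000 lie on the same chromosome with 3 protein-coding genes between them.

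The metabolic enzymes included several oxidoreductases. AT1G30700 encodes an FAD-binding oxidase like the berberine bridge enzyme, a family that oxidizes carbohydrates and alcohols. In WT it was at 0.932, 0.944, 0.739, 0.771, 0.752 and 0.786, with a mean of 0.821 ± 0.0923 (SD, n = 6), and replicates 1 and 2 were above the other 4. AT3G11150 encodes an oxygenase of the family that uses 2-oxoglutarate and iron, which includes enzymes of hormone and flavonoid metabolism. The WT samples gave 0.917, 0.831, 0.837, 0.786, 0.622 and 0.660, with a mean of 0.775 ± 0.113 (SD, n = 6), and replicates 5 and 6 were below the other 4.

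AT1G02020 encodes a protein of the nitroreductase family, flavoenzymes that reduce nitro groups. The 6 WT values were 0.564, 0.432, 0.454, 0.456, 0.524 and 0.443, with a mean of 0.479 ± 0.0526 (SD, n = 6). AT2G23890, a nucleotidase of the HAD superfamily of hydrolases, was at 0.228 ± 0.0543 (SD, n = 6). AT2G03140, of the family named CAAX amino terminal protease, was at 0.107 ± 0.0275 (SD, n = 6), and replicates 2, 4 and 6 were its highest samples.

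AT4G16490 encodes a protein of ARM repeats, a fold that binds other proteins. In WT it gave 0.729, 0.969, 0.804, 0.833, 0.640 and 0.717, with a mean of 0.782 ± 0.114 (SD, n = 6). The highest sample was replicate 2 and the lowest replicate 5, a 1.51-fold spread.

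Of the 10 genes given no role here, 4 were among the 12 brightest. AT3G53470 was the steadiest of all 31 genes: its WT values were 0.865, 0.882, 0.797, 0.801, 0.751 and 0.769, with a mean of 0.811 ± 0.0522 (SD, n = 6), or 6.43% of the mean. AT4G23110 was at 0.614, 0.524, 0.618, 0.645, 0.585 and 0.572 in WT, with a mean of 0.593 ± 0.0426 (SD, n = 6). AT3G52550 was at 0.594, 0.595, 0.531, 0.585, 0.559 and 0.496, with a mean of 0.560 ± 0.0401 (SD, n = 6). All 3 varied little between samples, with a highest WT value 1.17 to 1.23 times the lowest.

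AT2G26110 varied most among the 12 brightest named genes. Its WT values were 0.965, 0.841, 0.785 and 0.911 in replicates 1 to 4 and 0.263 and 0.225 in replicates 5 and 6, with a mean of 0.665 ± 0.332 (SD, n = 6). The highest was 4.29 times the lowest, and replicates 5 and 6 were separate from the other 4. The remaining 6 genes given no role were AT2G37880, at 0.353 ± 0.0294, AT2G20920, at 0.313 ± 0.0330, AT5G25990, at 0.234 ± 0.0868, AT1G07040, at 0.116 ± 0.0339, AT1G50770, at 0.0576 ± 0.0164, and AT4G05030, at 0.0425 ± 0.0176 (SD, n = 6 each).

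Across the 31 genes the SD was 6.43% to 58.7% of the mean. These percentages, and the ranking of genes as steady or not, use unscaled values and so include differences in brightness between WT samples. The highest WT value was less than 1.5 times the lowest for 14 genes and at least 2 times the lowest for 12. The 18 genes with a mean of 0.3 or more had a median coefficient of variation (SD over mean) of 11.1%, and the 13 dimmer genes one of 29.2%. Over all 149 features, those in the dimmest class had a median of 27.1%, against 19.0% for the other features of that class, where the 149 were also somewhat dimmer, with a median mean of 0.125 against 0.158. In the brighter classes the medians of the 149 were 12.02% to 13.6% and those of the others 13.7% to 15.0%. These are descriptions over features, which are not replicates.

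WT samples differed in brightness as a whole. The highest WT value was in replicate 1 or 2 for 25 of the 31 genes, and the lowest in replicate 5 or 6 for 20. Over all 149 features these shares were 62.4% and 55.0%, and over the other 2759 features 66.3% and 60.3%. The median of the 149 features was 0.308 and 0.2997 in replicates 1 and 2, 0.273 and 0.280 in replicates 3 and 4, and 0.256 and 0.244 in replicates 5 and 6. Relative to the median of the other features of the same sample it stayed between 0.638 and 0.674. The level of the 149 thus moved between WT samples as the whole sample did. Outside the 149, WT samples also deviated in twos from each feature's WT mean (log2). Deviations from a mean of the same 6 samples pull the correlations between samples below 0 on average. A negative value alone is therefore not read as opposition between samples. Over the other 2759 features, Pearson correlations across features were 0.192 to 0.274 between replicates 1 and 2, 3 and 4, and 5 and 6, and -0.465 to -0.118 between all other WT samples. Over the 149 features they were -0.180 to 0.217 within these twos and -0.596 to 0.191 otherwise. Over the 31 named genes the twos did not hold, with -0.419 to 0.083 within them. There the correlations were 0.188 to 0.233 among replicates 1, 3 and 5 and 0.0261 to 0.308 among replicates 2, 4 and 6. Between these 2 sets of replicates they were -0.741 to 0.083. The labels do not say that any of these samples share a source. If some do, an SD given with n = 6 rests on fewer independent values, 3 if they come in twos. The psbs samples were not described in this way, and the same limit would hold for a 0 in all 6 of them.

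**Figure D4:**
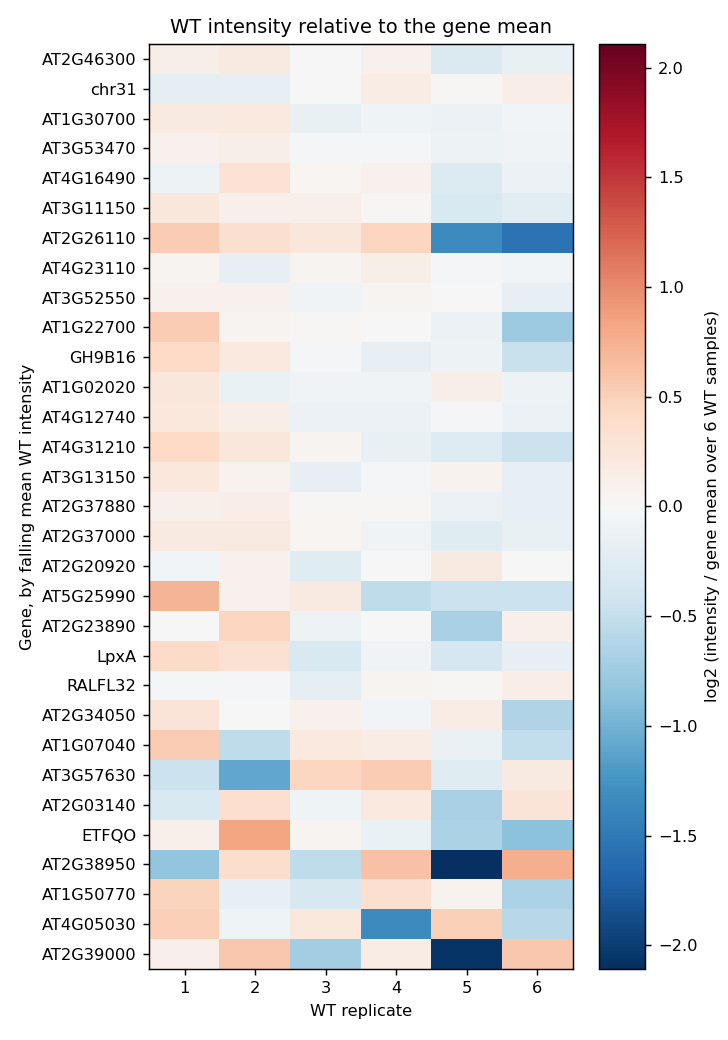
Log2 of each WT intensity over the gene's own WT mean, for the 31 named genes (rows, by falling mean) and the 6 WT samples (columns). Replicates 1 and 2 are mostly above the mean (red) and 5 and 6 mostly below (blue). AT2G26110 is low in replicates 5 and 6, and AT2G38950 and AT2G39000 are lowest in replicate 5.

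In 22 single-gene features just outside the rule the signal was above 0 in all WT samples and in exactly 1 psbs sample. The brightest of these in WT were AT2G41950, at 0.717 ± 0.0699, AT2G48090, at 0.560 ± 0.0273, AGL54, a MADS-box transcription factor gene, at 0.489 ± 0.0377, and AT1G50020, at 0.433 ± 0.114 (SD, n = 6 each). Their only positive psbs values were 0.00342 in replicate 5, 0.0262 in replicate 6, 0.0410 in replicate 4 and 0.00263 in replicate 6, in that order. On the WT side 2 single-gene features at 0 in all psbs samples missed the rule by 1 WT sample: AT4G38040 was at 0 in replicate 6 and otherwise between 0.0125 and 0.191, and AT4G02800 was at 0 in replicate 2 and otherwise between 0.0220 and 0.167. In all, 259 features were at 0 in every psbs sample, and 80 of them were at 0 in every WT sample too.

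The 149 features were unevenly spread over the feature numbers of the array. What the numbers stand for (spotting order, plate or list position) is not given in the sources used here. In 100 cases the feature numbered directly after 1 of the 149 was itself above 0 in all WT samples, and 28 of these 100 (28.0%) were also among the 149. After the other features above 0 in all WT samples it was 70 of 1778 (3.94%). At a distance of 2 and 3 numbers the share was 14.6% and 15.0%. At distances of 4 to 24 it was between 3.64% and 12.4%, with the highest values, 12.4% and 11.9%, at distances of 9 and 15. In the lower part of the numbers, up to 2304, the share directly after a member was 20.0% (8 of 40) and above it 33.3% (20 of 60).

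**Figure D5:**
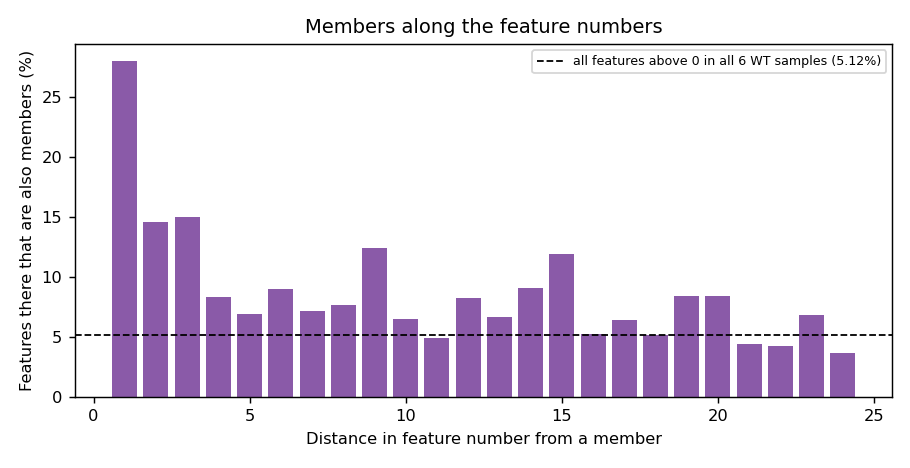
Share of features that are also among the 149, by distance in feature number from a member, among features above 0 in all 6 WT samples. The bar at distance 1 stands at 28.0%, against 5.12% for all such features (dashed line), and bars from distance 4 to 24 lie between 3.64% and 12.4%, both above and below the line.

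These neighbours formed 26 runs of consecutive numbers, 24 of 2 features and 2 of 3 features, which together held 54 of the 149 (36.2%). Of the 31 named genes 10 lay in such a run. In 2 runs both features had a single gene: AT2G20920 was next to AT2G37880, and AT2G23890 was next to GH9B16. The genes of each pair lie at different loci. Of 12 blocks of 384 consecutive numbers, that from 385 to 768 held 1 of the 149 among 235 features above 0 in all WT samples (0.426%). The block from 4225 to 4608 held 22 among 243 (9.05%), and the other 10 blocks were between 3.70% and 7.08%. Of the 261 features numbered in multiples of 6, only 32 were above 0 in all WT samples, and 2 of these 32 were among the 149. The part of array position in the zeros of psbs was not tested.

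By the chromosome that is part of each locus name, 11 of the 31 named genes (35.5%) were on chromosome 2, 8 on chromosome 4, 6 on chromosome 1, 5 on chromosome 3 and 1 on chromosome 5 (3.23%). Of the other 552 single-gene features above 0 in all WT samples, 18.1% were on chromosome 2 and 19.7% on chromosome 5. The closest named genes were AT2G38950 and AT2G39000, and the next closest pair, AT2G37000 and AT2G37880, had 91 protein-coding genes between them. With 31 genes these shares are given as counts only.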

How the data were processed

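Total RNA of 12 samples, 6 WT and 6 psbs, had been hybridized. The deposited table holds intensities on a linear scale from 0 to 100. How the authors scanned, background-corrected and scaled them, and what a 0 stands for, is not given in the sources used here. Sample titles gave the groups and replicate numbers.

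Members were features above 0 in all 6 WT samples and exactly 0 in all 6 psbs samples, on values as deposited. No test, scaling, floor or pseudocount was applied, because the rule uses the contrast between the groups. Means, SDs and counts were computed with pandas 2.3.3 in Python 3.11.15. WT level classes are 4 equal parts, by mean WT intensity, of the 2908 features above 0 in all WT samples.

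Gene names came from the platform annotation, looked up in the gene list of TAIR10.1 for names and gene order only: 690 of 692 single-gene features matched. The files name no genome build, and coordinates are left out. Function classes were to be set from words in that list, but it held descriptive names for only 4 of the 31 genes. Roles were therefore written from general knowledge, after the members were known. The rule for named genes accounts for all 31, gives the 12 brightest in every WT sample, and adds up to 4 genes just outside the rule on each side, of which 2 existed on the WT side. The members and lists were chosen with earlier results of these data known. Alternatives changed the samples, the thresholds for detection, the features used and the scaling. The number of samples limits the precision.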

Additional observations from a re-analysis of the deposited data

Results flagged for a closer look

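The gap between the highest or lowest sample and the remaining 5 was examined in 49 groups of values with any spread, and chance alone picks about 5% of groups. No WT sample of a named gene stood out by this measure. The 4 that did were psbs samples of genes chosen because exactly 1 psbs sample was above 0, so each stands apart by construction: AT2G41950 in psbs replicate 5, at an intensity of 0.00342, AT2G48090 in psbs replicate 6, at 0.0262, AGL54 in psbs replicate 4, at 0.0410, and AT1G50020 in psbs replicate 6, at 0.00263, with all others at 0.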

How the results depend on the processing

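With a 0 required in at least 5 psbs samples, the number of features rose from 149 to 240 and that of named genes from 31 to 53, by construction of the looser rule. Leaving out 1 replicate at a time gave 149 to 174 features and 31 to 39 named genes. Leaving out samples can likewise only add features, so none of the 149 could be lost. The median WT intensity was then 0.280 to 0.305, with 8.05% to 9.40% of members in the brightest level class. The other alternatives gave 144 to 199 features and 30 to 42 named genes; with psbs replicates 1 and 2 both left out there were 182 and 39. Over all alternatives but leaving out 1 replicate, the median WT intensity was 0.281 to 0.301 and the share in the brightest class 7.54% to 9.89%. No paired analysis was possible because the results come from no test. Signal near background cannot be judged, since no background values were used here.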
